A study of Rattus norvegicus with 9 samples.

Results

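The genes described here mark the nerves, the glia and the neuroendocrine cells of the rat prostate. A list of 36 genes was followed, with 12 neuronal genes, 9 genes of autonomic transmitter handling, 4 receptors of the GDNF family, 6 Schwann cell genes and 5 neuroendocrine genes, out of 15163 gene symbols matched on the array. A probe was found for 34 of the 36 genes through its RefSeq accession. Syp and Insm1 had no matched probe and are not analysed here.

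Expression was measured in prostates of male Sprague Dawley rats (6 weeks old at purchase) with Agilent one-color arrays, 1 array per sample and 3 arrays in each of 3 groups. Sham rats underwent a sham operation for castration and received corn oil subcutaneously and distilled water by mouth. BPH rats were castrated and injected subcutaneously with dihydrotestosterone at 3 mg/kg daily for 4 weeks, together with distilled water by mouth. BPH+ghrelin rats had the same castration and androgen, and rat ghrelin by gavage at 20 nmol/kg daily for 2 weeks, begun 2 weeks after the androgen. A figure legend of the study names another dose and route. It is not stated which animals of each group were used for the arrays, so p-values measure the spread between these samples.

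The prostate is innervated by sympathetic and parasympathetic fibers. Their cell bodies lie mostly in pelvic ganglia outside the gland, so that most neuronal mRNA is found there, whereas Schwann cells accompany the axons inside the gland and carry their own mRNA. Neuroendocrine cells are scattered epithelial cells that store peptides and amines in secretory granules. In whole tissue, fewer cells of a type and less RNA per cell cannot be told apart.

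The 3 genes with a cyclic AMP response element among those with a listed promoter, and the choline acetyltransferase gene, a cholinergic marker, are shown by their upstream sequence (RefSeq, assembly GRCr8, read 5′ to 3′ toward the gene). The element, TGACGTCA on either strand, was found in the 250 bases before the start of 3 of 25 members with an entry (12%), and in 1.59% of the 33469 promoters of the table. Capitals mark TGACGTCA in Th, Slc18a2 and Scg2, and an E-box (CACGTG) in Chat, the only member promoter with this motif, which is held by 5.59% of all promoters. A match is a description of these letters only.
Th (GRCr8, chr1:207508220-207508347, minus strand): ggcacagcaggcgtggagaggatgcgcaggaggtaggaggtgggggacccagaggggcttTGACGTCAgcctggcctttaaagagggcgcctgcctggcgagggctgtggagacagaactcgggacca
Slc18a2 (GRCr8, chr1:268399909-268400020, plus strand): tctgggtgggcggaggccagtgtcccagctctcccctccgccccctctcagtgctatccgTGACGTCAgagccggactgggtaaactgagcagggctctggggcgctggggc
Scg2 (GRCr8, chr9:88256922-88257049, minus strand): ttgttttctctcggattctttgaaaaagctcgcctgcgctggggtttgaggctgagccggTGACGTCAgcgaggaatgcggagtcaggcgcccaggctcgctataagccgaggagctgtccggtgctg
Chat (GRCr8, chr16:7723452-7723577, minus strand): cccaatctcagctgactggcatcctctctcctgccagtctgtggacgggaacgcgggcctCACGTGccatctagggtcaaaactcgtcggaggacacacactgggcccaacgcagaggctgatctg
The first base of the element lay 69 bases before the start in Th, 52 in Slc18a2 and 123 in Scg2, and the E-box began 101 bases before the start of Chat. TCAGCACC, the left part of the RE1 element through which neuronal genes are silenced in other cells, was found in Elavl4, Scg2 and Tubb3, and in 1.25% of all promoters. A homeodomain core, TAATTA, was found only in Hand2 among the members, and in 4.86% of all promoters. The starts of Chat and Slc18a3, which are transcribed from the same cholinergic locus, lay 602 bases apart.

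Detection was examined first. A probe counts as detected on an array where the scanner software marked it well above background, and levels are log2 intensities after quantile normalization, which can be compared between arrays for one probe but not between probes. Detection on all 9 arrays was found for 15 members, on 3 to 8 arrays for 9, on 1 or 2 arrays for 4 and on none for 6. Members with a probe were detected on at least 3 arrays in 70.6% of cases, compared to 77.8% of all symbols. The raw signal was lowest on sham replicate 2, where the software marked 61.4% of probes as detected, and at least 69.5% were detected on every other array.

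The genes at background included several that define neurons and neuroendocrine cells. Not detected on any array were Syt1, the calcium sensor of synaptic vesicles, Elavl4, a neuronal RNA-binding protein, Dbh, which makes noradrenaline from dopamine, Erbb4, a neuregulin receptor, Cdh19, a cadherin of the Schwann lineage, and Chga, the granule protein used as a neuroendocrine marker. Snap25 (SNARE protein of the presynaptic membrane) was detected on BPH+ghrelin replicate 1 alone, and Stmn2 (microtubule regulator of growing axons) on BPH replicate 1 alone. Hand2 (transcription factor of sympathetic neurons) and Chgb (granule protein) were detected on 1 array each. No level is given for these 10 genes as a difference. Of the markers defining each cell type, 4 of 8 nerve genes, 5 of 6 Schwann genes and 1 of 5 neuroendocrine genes were detected on at least 3 arrays, so the neuroendocrine label rests on Scg2 alone.

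**Figure D1:**
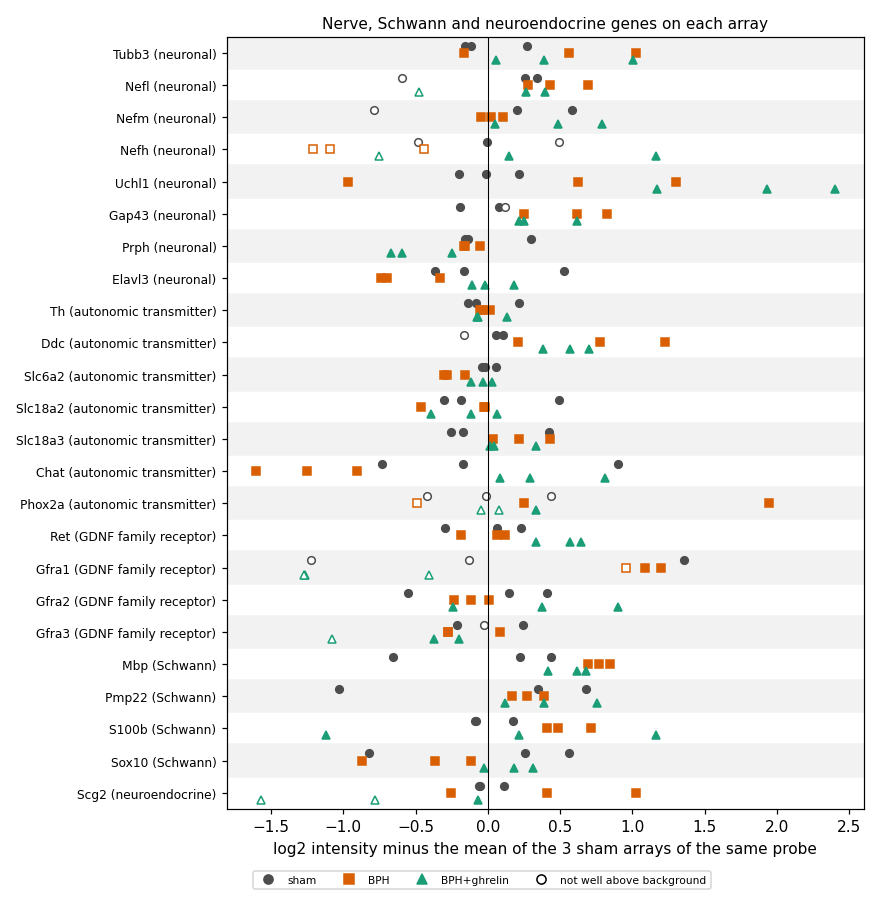
Each point is the log2 intensity on 1 array minus the mean of the 3 sham arrays, for the 24 members detected on at least 3 of 9 arrays (circles for sham, squares for BPH, triangles for BPH+ghrelin, open symbols where not well above background). The 3 BPH arrays of Chat lie below all its other arrays, and the 3 BPH+ghrelin arrays of Uchl1 reach up to 2.40 above the sham mean.

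No member passed the test in any comparison (limma, adjusted p under 0.05 over all genes tested). Between BPH and sham, 0 of 22 tested members were called, compared to 4.34% of the 19552 genes tested. Between BPH+ghrelin and BPH, 0 of 22 were called, compared to 1.48% of 19749 genes, and between BPH+ghrelin and sham 0 of 22, compared to 6.29% of 19197 genes. The 22 are the members with detection on 3 or more of the compared arrays, and they are not all members. The 3 comparisons share arrays, so their results are not independent.

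Before adjustment, 6 of 22 members had p under 0.05 between BPH and sham, 3 of them higher and 3 lower (26.5% of all genes). For BPH+ghrelin against BPH the count was 5 (21.1% of all genes), and for BPH+ghrelin against sham 3 (23.7% of all genes). A difference of at least 2-fold in the means was seen for 2 members between BPH and sham (8.16% of all genes), for 3 between BPH+ghrelin and BPH (6.11%) and for 1 between BPH+ghrelin and sham (7.41%). The values of 2 groups were separate, without overlap, for 6 members (31.3% of all genes), for 7 (39.2%) and for 6 (30.4%) in the same order. The median log2 difference of the tested members was 0.13, 0.02 and 0.17, compared to 0.04, 0.02 and 0.04 over all genes.

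The 95% interval of the log2 difference lay within 1 (2-fold) in either direction for 10 of 22 members between BPH and sham, for 11 between BPH+ghrelin and BPH and for 10 between BPH+ghrelin and sham. For the other members, a 2-fold difference was not excluded by the interval.

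**Figure D2:**
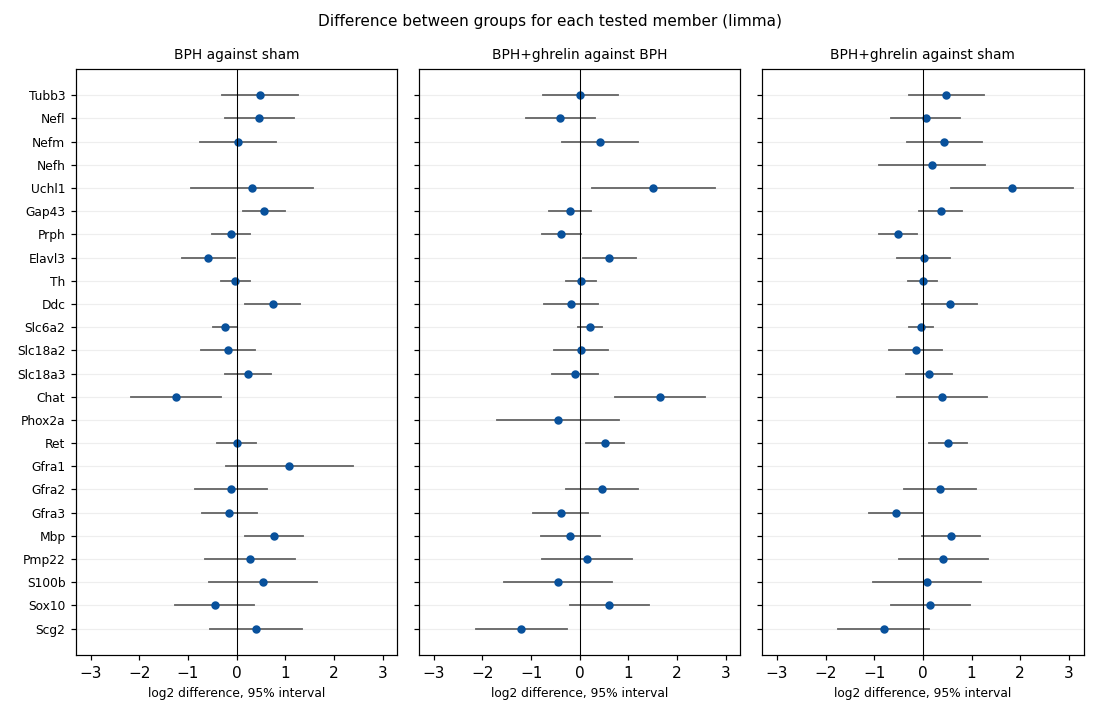
Log2 difference between group means (points) with 95% intervals from limma (lines), for each member tested in the comparison named above the panel. Members without a point were not tested there. The Chat difference was -1.25 in the left panel and 1.65 in the middle panel, and no member was called.

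Among the tested autonomic transmitter genes, Chat, the enzyme that makes acetylcholine, had the largest difference between BPH and sham and between BPH+ghrelin and BPH. Its log2 intensity was 3.92, 5.55 and 4.48 on the 3 sham arrays, 3.40, 3.05 and 3.74 on the 3 BPH arrays, and 4.73, 4.94 and 5.46 on the 3 BPH+ghrelin arrays. All BPH arrays were lower than every other array, while sham and BPH+ghrelin overlapped. The log2 difference was -1.25 (SE 0.40, 95% interval -2.18 to -0.32, limma adjusted p = 0.109) between BPH and sham, and 1.65 (SE 0.40, 0.72 to 2.58, adjusted p = 0.0873) between BPH+ghrelin and BPH. The latter is 3.13-fold. Between BPH+ghrelin and sham it was 0.39 (-0.53 to 1.32, adjusted p = 0.605).

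These Chat values depend on the background correction and on single arrays. With normexp and an offset of 50, which compresses dim probes, the differences were -0.18 and 0.34. With the 6 compared arrays alone, BPH+ghrelin against BPH had adjusted p = 0.0244, in a fit that called 2118 genes instead of 293, and without sham replicate 1, BPH against sham was -1.62 with adjusted p = 0.0323, in a fit that called 3069 genes instead of 849. Without sham replicate 2, the highest sham array, BPH against sham was -0.80. Leaving out 1 array moved the difference between BPH+ghrelin and sham from 0.03 to 0.85, and none of these was called. Over all alternatives the adjusted p ranged from 0.0244 to 0.566 between BPH+ghrelin and BPH and from 0.0323 to 0.964 between BPH and sham. On the slide shared by BPH+ghrelin replicate 1 and all BPH arrays, Chat was 1.33 higher on the BPH+ghrelin array. No slide held both BPH and sham arrays. Slc18a3, the vesicular acetylcholine transporter from the same locus, ranged from 4.26 to 4.94 in sham, from 4.55 to 4.94 in BPH and from 4.53 to 4.84 in BPH+ghrelin. Its groups overlapped in every comparison, with log2 differences of 0.23, -0.10 and 0.13.

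Th, the rate-limiting enzyme of catecholamine synthesis, had log2 intensities of 7.39, 7.10 and 7.04 in sham, 7.19, 7.13 and 7.12 in BPH, and 7.10, 7.30 and 7.11 in BPH+ghrelin. All 3 groups overlapped, and the range over the 9 arrays was 0.35. The interval of the Th difference was -0.33 to 0.28 for BPH against sham, -0.28 to 0.33 for BPH+ghrelin against BPH and -0.31 to 0.30 for BPH+ghrelin against sham.

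Slc6a2, the noradrenaline transporter, was 7.26, 7.33 and 7.23 in sham, 6.99, 7.11 and 6.97 in BPH and 7.15, 7.30 and 7.24 in BPH+ghrelin. BPH arrays were lowest, with a log2 difference of -0.25 from sham (SE 0.11, limma adjusted p = 0.189). A second Slc6a2 probe, detected on 8 arrays, went the other way by 0.58, and the mean of both probes gave 0.16, so no direction is given for the gene. Slc18a2, the vesicular monoamine transporter, had log2 differences of -0.17, 0.02 and -0.15 in the 3 comparisons, and its groups overlapped.

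Ddc, which forms dopamine from L-DOPA, was 4.22, 3.95 and 4.17 in sham, 5.34, 4.89 and 4.32 in BPH, and 4.68, 4.49 and 4.81 in BPH+ghrelin. Every sham array was below all other arrays. The difference was 0.73 between BPH and sham (0.18 to 1.29, limma adjusted p = 0.115) and 0.55 between BPH+ghrelin and sham (-0.01 to 1.11, adjusted p = 0.215). Over the alternatives these Ddc differences ranged from 0.21 to 1.00 and from 0.12 to 0.63. Phox2a, a transcription factor of autonomic neurons, was detected on 2 BPH arrays and 1 BPH+ghrelin array, and had a log2 difference of -0.44 between BPH+ghrelin and BPH (-1.70 to 0.81), and 0.24 without BPH replicate 2.

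**Figure D3:**
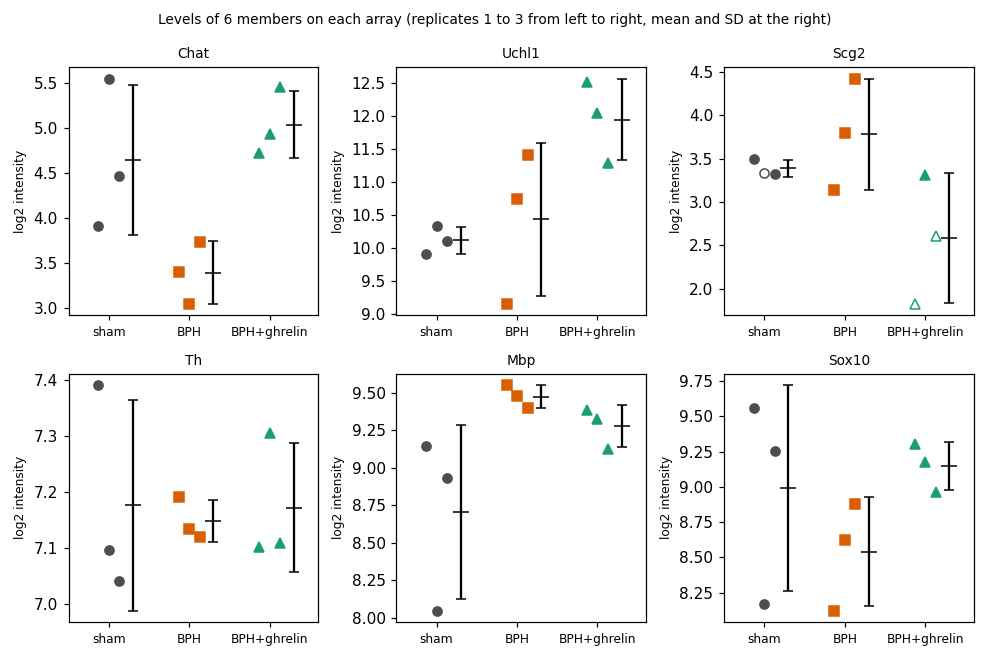
Log2 intensity of 6 members on each array, in the order of replicates 1 to 3, with the mean and SD (n = 3) at the right of each group. Open symbols are arrays not well above background, and each panel has its own axis. Th spans 0.35 over its panel, compared to 3.36 for Uchl1 and 2.51 for Chat.

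Of the neuronal genes, Uchl1 had the widest range. It encodes a ubiquitin hydrolase that is abundant in neurons and is also found in other cells. Log2 intensities were 9.92, 10.34 and 10.10 in sham, 9.15, 10.74 and 11.42 in BPH, and 12.52, 12.05 and 11.29 in BPH+ghrelin. All BPH+ghrelin arrays were above all sham arrays, and the BPH arrays spanned the sham range and overlapped BPH+ghrelin. The difference was 1.83 between BPH+ghrelin and sham (SE 0.55, 95% interval 0.58 to 3.09, limma adjusted p = 0.0874), 1.51 between BPH+ghrelin and BPH (SE 0.55, 0.26 to 2.77, adjusted p = 0.174) and 0.32 between BPH and sham (-0.94 to 1.58, adjusted p = 0.728). With the 6 compared arrays alone, BPH+ghrelin against sham had adjusted p = 0.0411 (range over the alternatives 0.0411 to 0.429). Without BPH replicate 1, BPH+ghrelin against BPH was 0.87. Within slides, Uchl1 was 2.08 higher on the BPH+ghrelin array than on the BPH arrays, and 1.54 higher on 2 BPH+ghrelin arrays than on 2 sham arrays.

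Elavl3, a neuronal RNA-binding protein, was 3.84, 4.53 and 3.64 in sham, 3.31, 3.68 and 3.27 in BPH, and 3.90, 4.19 and 3.99 in BPH+ghrelin. The BPH arrays were below all BPH+ghrelin arrays and overlapped sham. Its log2 difference was -0.59 between BPH and sham (-1.13 to -0.04, limma adjusted p = 0.168) and 0.60 between BPH+ghrelin and BPH (0.06 to 1.15, adjusted p = 0.202). The first was -0.32 without sham replicate 2, and -0.10 with normexp.

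Prph, the intermediate filament of peripheral neurons, was 5.26, 5.71 and 5.28 in sham, 5.25, 5.26 and 5.36 in BPH, and 4.82, 4.75 and 5.17 in BPH+ghrelin. The 3 BPH+ghrelin arrays were lowest. The log2 difference of Prph between BPH+ghrelin and sham was -0.50 (-0.89 to -0.11, limma adjusted p = 0.119), and that between BPH+ghrelin and BPH was -0.38 (-0.77 to 0.02, adjusted p = 0.250).

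Gap43, a protein of axonal growth cones, was 3.86, 3.90 and 3.59 in sham, 4.03, 4.40 and 4.61 in BPH, and 4.03, 4.00 and 4.40 in BPH+ghrelin, so that sham arrays were below all others. Its log2 difference between BPH and sham was 0.56 (0.13 to 1.00, limma adjusted p = 0.117), and ranged from 0.087 to 0.72 over the alternatives. Tubb3, the neuronal beta-tubulin, ranged from 5.76 to 6.19 in sham, from 5.75 to 6.94 in BPH and from 5.97 to 6.92 in BPH+ghrelin, with overlap throughout. The neurofilament genes Nefl, Nefm and Nefh were dim, with detection on 7, 8 and 3 arrays. Nefl differed by 0.47, -0.40 and 0.06, and Nefm by 0.03, 0.41 and 0.44. Nefh was tested only between BPH+ghrelin and sham, with a difference of 0.19 (-0.90 to 1.27).

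The receptors of the GDNF family bind ligands that maintain autonomic neurons, with Ret as the signaling kinase and the Gfra proteins as coreceptors. Ret was 4.88, 4.35 and 4.71 in sham, 4.71, 4.46 and 4.77 in BPH, and 5.29, 5.21 and 4.98 in BPH+ghrelin. All 3 BPH+ghrelin arrays were above all others. The Ret difference was 0.52 against BPH (0.12 to 0.91, limma adjusted p = 0.154) and 0.51 against sham (0.12 to 0.91, adjusted p = 0.116), while the mean was 4.65 in BPH and in sham (interval of the difference -0.40 to 0.40). A second Ret probe, detected on 9 arrays, had differences of 0.29 and 0.12. Within slides, Ret was 0.64 higher than BPH and 0.48 higher than sham, whereas with normexp the differences were 0.087 and 0.13.

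Gfra2, the neurturin coreceptor, had log2 differences of -0.11, 0.46 and 0.34, and its groups overlapped. A second, dimmer Gfra2 probe was detected on the 3 BPH+ghrelin arrays alone, at 3.98, 3.42 and 3.23, compared to at most 2.83 in BPH and 3.04 in sham, where it was not well above background. Gfra3, the artemin coreceptor, differed by -0.16, -0.39 and -0.55 (for the last, -1.11 to 0.01, limma adjusted p = 0.217). Gfra1, the GDNF coreceptor, was detected on 1 sham array, 2 BPH arrays and 0 BPH+ghrelin arrays. Its log2 intensity was 1.81, 0.71 and 3.297 in sham, 3.02, 3.14 and 2.89 in BPH, and 1.53, 0.68 and 0.67 in BPH+ghrelin, where none was well above background. Sham overlapped both other groups, while all BPH arrays were above all BPH+ghrelin arrays. Gfra1 differed by 1.08 between BPH and sham (-0.23 to 2.39, limma adjusted p = 0.261), and by 0.47 to 1.76 when 1 array was left out. Its comparisons with BPH+ghrelin were not tested because detection was found on fewer than 3 of the 6 arrays.

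Among the Schwann cell genes, Mbp, a myelin protein that is also made in other cells from an alternative start, was 9.14, 8.05 and 8.93 in sham, 9.55, 9.48 and 9.40 in BPH, and 9.39, 9.33 and 9.13 in BPH+ghrelin. BPH arrays were highest without overlap. The difference between BPH and sham was 0.77 (SE 0.26, 95% interval 0.17 to 1.37, limma adjusted p = 0.121). It fell to 0.44 without sham replicate 2 and was called without sham replicate 1 (0.99, adjusted p = 0.0405, range over the alternatives 0.0405 to 0.926). The second Mbp probe, also detected on 9 arrays, had a difference of -0.01.

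Sox10, the transcription factor that defines neural crest glia, was 9.56, 8.17 and 9.25 in sham, 8.12, 8.63 and 8.88 in BPH, and 9.31, 9.17 and 8.96 in BPH+ghrelin. BPH+ghrelin was above BPH on all arrays, and sham overlapped both. The Sox10 difference was -0.45 between BPH and sham (-1.26 to 0.36, limma adjusted p = 0.431) and 0.61 between BPH+ghrelin and BPH (-0.20 to 1.42, adjusted p = 0.356). Without sham replicate 2, the array with the lowest signal, the first of these was -0.86 (adjusted p = 0.0805, the lowest over the alternatives). Pmp22, a myelin protein also made by fibroblasts and epithelium, was 11.52, 9.82 and 11.19 in sham, with 9.82 on sham replicate 2, and lay between 10.96 and 11.60 in the other groups. Its difference between BPH and sham was 0.27, and -0.24 without sham replicate 2.

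S100b, a calcium-binding protein of glia and also of adipocytes, was 5.80, 6.06 and 5.80 in sham, 6.30, 6.37 and 6.60 in BPH, and 4.77, 6.10 and 7.05 in BPH+ghrelin. The lowest and the highest of the 9 values were both BPH+ghrelin arrays. Adipoq, the adipocyte hormone gene, was 0.58 on the same lowest array and 10.88 and 11.94 on the other BPH+ghrelin arrays, and it was 3.28, 12.03 and 10.48 in sham. In BPH it was 11.43, 10.95 and 9.99, and the BPH array highest in S100b was the lowest in Adipoq. Of 6 adipocyte markers 4 were detected on at least 3 arrays, Lep was detected on none, and the log2 of their summed intensity was 9.60 to 13.29 in sham, 11.56 to 12.62 in BPH and 8.91 to 12.99 in BPH+ghrelin. The part of adipose tissue in the S100b values was not tested. The S100b difference was 0.54 between BPH and sham (-0.57 to 1.64, limma adjusted p = 0.490), although these arrays did not overlap. Over the alternatives this difference ranged from 0.23 to 2.30.

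Of the neuroendocrine genes, only Scg2, a granin of secretory granules, was tested. It was 3.50, 3.34 and 3.33 in sham, 3.13, 3.80 and 4.41 in BPH, and 1.82, 3.32 and 2.61 in BPH+ghrelin. Detection was found on 2, 3 and 1 arrays of these groups. BPH+ghrelin replicates 1 and 3 were not well above background, so differences from BPH+ghrelin are not exact. The BPH arrays alone were enough for Scg2 to be tested against BPH+ghrelin. BPH+ghrelin was below sham on all arrays and overlapped BPH on 1. The difference was -1.20 between BPH+ghrelin and BPH (SE 0.41, 95% interval -2.14 to -0.26, limma adjusted p = 0.160), -0.80 between BPH+ghrelin and sham (-1.74 to 0.13, adjusted p = 0.276) and 0.39 between BPH and sham (-0.55 to 1.34, adjusted p = 0.553). With normexp the first was -0.12. When 1 array was left out, the differences ranged from -1.57 to -0.82, from -1.17 to -0.42 and from 0.08 to 0.72, in the same order. Th and Slc18a2, whose promoters hold the same letters, differed by 0.02 each between BPH+ghrelin and BPH. A part of the element in the values of these 3 genes was not tested.

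In addition, 121 further genes of the same systems were followed in 5 lists, of which 108 had a probe. Between BPH and sham, 1 of 77 tested genes was called higher and 5 lower, where 4.34% of all genes were called. The count was 2 higher and 2 lower of 77 between BPH+ghrelin and BPH (1.48% of all genes), and 5 higher and 5 lower of 72 between BPH+ghrelin and sham (6.29% of all genes). Whether the lists differ from other genes was not tested. The median log2 difference was -0.09, 0.01 and 0.01. With slide as a block, of the calls in these lists only those of Pou3f1 and Ncam1 between BPH+ghrelin and sham were kept, in fits that called 2, 2 and 85 of all genes in the 3 comparisons. With the replicate block, those of Syt5, Nrg2, Bex1, Gpm6b, Cadps, Cplx2, Snap91 and Foxa2 were lost.

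Among further Schwann and glial genes, Pou3f1 and Ncam1, which are also active outside glia, were lower in both castrated groups than in sham. Pou3f1, a transcription factor of Schwann cells before myelination and of squamous epithelium, was 11.87, 10.63 and 11.49 in sham, 6.88, 6.47 and 5.60 in BPH, and 5.47, 5.70 and 5.63 in BPH+ghrelin. It was 5.01 lower on the log2 scale in BPH than in sham (log2 difference -5.01, SE 0.38, limma adjusted p = 0.00109), and the difference was -5.73 between BPH+ghrelin and sham (adjusted p = 3.27e-04). Ncam1, an adhesion molecule of neurons, glia and some lymphocytes, was 9.32, 9.48 and 9.40 in sham, 7.58, 7.26 and 6.71 in BPH, and 6.95, 6.70 and 6.65 in BPH+ghrelin. Its difference from sham was -2.21 in BPH (SE 0.22, adjusted p = 0.00258) and -2.63 in BPH+ghrelin (adjusted p = 7.37e-04).

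The fall of Pou3f1 and Ncam1 against sham was called without each array in turn, and for BPH+ghrelin also with slide as a block. Gpm6b, a membrane proteolipid of glia and neurons, was 6.60, 5.53 and 6.39 in sham and 5.14, 5.05 and 5.09 in BPH+ghrelin (-1.08, adjusted p = 0.0445), and lost its call without sham replicate 1 or 3 or any BPH+ghrelin array. The other glial genes of the list, 15 of 17 tested between BPH and sham, were not called. Luminal markers moved with the same groups. The log2 of the summed intensity of 9 luminal genes was 17.76 to 17.95 in sham, 16.43 to 17.12 in BPH and 16.58 to 16.99 in BPH+ghrelin. That of 6 seminal vesicle and coagulating gland genes was 16.46 to 17.27, 9.48 to 14.79 and 9.09 to 11.92. Their part in the Pou3f1 and Ncam1 values was not tested.

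**Figure D4:**
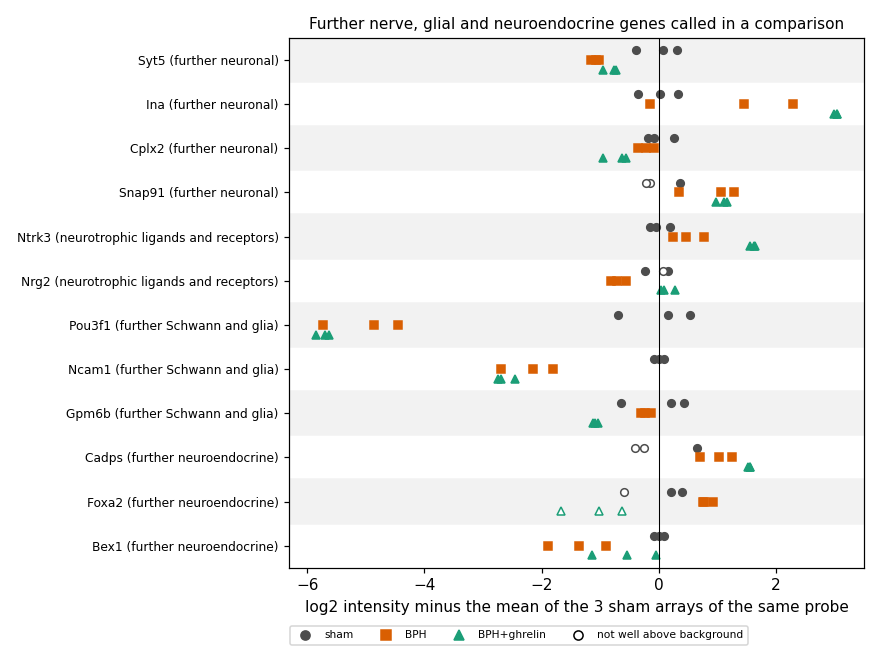
Log2 intensity on each array minus the mean of the 3 sham arrays for 12 further genes called in at least 1 comparison (circles for sham, squares for BPH, triangles for BPH+ghrelin, open symbols where not well above background). Pou3f1 and Ncam1 lie far below sham in both castrated groups, while Ina and Ntrk3 are highest on the BPH+ghrelin arrays.

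Of the neurotrophic ligands and receptors, Ntrk3, the neurotrophin-3 receptor, was 5.63, 5.96 and 5.73 in sham, 6.01, 6.23 and 6.54 in BPH, and 7.39, 7.32 and 7.41 in BPH+ghrelin. All BPH+ghrelin arrays were above all BPH arrays, and these above all sham arrays. Ntrk3 rose by 1.11 between BPH+ghrelin and BPH (SE 0.16, limma adjusted p = 0.0249) and by 1.60 between BPH+ghrelin and sham (SE 0.16, adjusted p = 0.00214). The rise against sham was called without each array in turn, whereas that against BPH was called only without BPH replicate 3. Within slides the differences were 1.13 against BPH and 1.57 against sham, but with slide as a block neither was called (adjusted p = 0.266 and 0.0649, the highest over the alternatives), and the rise against BPH was also lost with the replicate block.

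Nrg2, a neuregulin, was 3.81, 3.73 and 3.41 in sham, 2.83, 2.94 and 3.09 in BPH, and 3.93, 3.74 and 3.68 in BPH+ghrelin. It was lower in BPH than in sham by a log2 difference of -0.70 (adjusted p = 0.0416) and higher in BPH+ghrelin than in BPH by 0.83 (adjusted p = 0.0419). When 1 array was left out, the first was called only without sham replicate 1 and the second only without BPH replicate 3. Neither was called with normexp, with no filter on dim probes, or with trend and robust in eBayes. The first was also lost with the 6 compared arrays alone. Nrg2 was dim, and its sham replicate 2 was not well above background, so the difference from sham is not exact. The GDNF family ligands were not called. Gdnf itself was detected on no array. Nrtn had differences of -0.43, 0.28 and -0.15, Artn of -0.09, 0.45 and 0.36, and Pspn of 0.06, 0.10 and 0.16. Bdnf was detected on no array, and Ntf3, the ligand of Ntrk3, had a difference of -0.84 between BPH+ghrelin and BPH (limma adjusted p = 0.207). Ntf3 was detected on all BPH arrays but on only 1 BPH+ghrelin array, so this difference is not exact.

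Among further neuronal genes, Ina, the intermediate filament internexin, was 6.08, 5.41 and 5.78 in sham, 5.60, 7.20 and 8.04 in BPH, and 8.80, 8.74 and 8.79 in BPH+ghrelin. BPH+ghrelin was above all other arrays, and BPH spanned more than 2-fold. Ina rose by 3.02 between BPH+ghrelin and sham (SE 0.53, limma adjusted p = 0.0185). Within the shared slide the difference was 3.03, but with slide as a block it was not called (adjusted p = 0.191, the highest over the alternatives). Snap91, a clathrin adaptor of synaptic vesicles, was 1.09 higher in BPH+ghrelin than in sham (limma adjusted p = 0.0466), with detection on 1 sham array. Its sham replicates 2 and 3, at 3.03 and 2.97, were not well above background, so 1.09 is not an exact difference. The BPH+ghrelin arrays alone were enough for Snap91 to be tested, so the call is not independent of its detection. Without sham replicate 3 or any BPH+ghrelin array, neither Ina nor Snap91 was called, and Snap91 was also lost without sham replicate 2 and with normexp. Syt5, a synaptotagmin, was lower than sham in BPH (-1.08, adjusted p = 0.0210) and in BPH+ghrelin (-0.82, adjusted p = 0.0384), and Cplx2, a complexin, in BPH+ghrelin (-0.72, adjusted p = 0.0441). In BPH+ghrelin both lost the call without sham replicate 1 or 3 or any BPH+ghrelin array, and Syt5 in BPH without sham replicate 3 or BPH replicate 2 or 3.

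No gene of the further autonomic list was called among 12 tested in each comparison, among them Maoa, Maob and the nicotinic receptor gene Chrnb4. Before adjustment, 2 of these 12 had p under 0.05 between BPH and sham (26.5% of all genes), 2 between BPH+ghrelin and BPH (21.1%) and 3 between BPH+ghrelin and sham (23.7%). Maoa, a monoamine oxidase, differed by 0.31, 0.18 and 0.49 (for the last, 0.07 to 0.90, limma adjusted p = 0.148). Slc18a1, the second vesicular monoamine transporter, was 7.48, 2.97 and 7.06 in sham, 3.67, 3.82 and 3.91 in BPH, and 3.74, 3.35 and 2.84 in BPH+ghrelin. Sham replicate 2, not well above background, was below all BPH arrays while the other sham arrays were above them, so the differences from sham, -2.04 in BPH and -2.53 in BPH+ghrelin (for the latter, -4.88 to -0.17, adjusted p = 0.182), depend on that array.

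Of the further neuroendocrine genes, Cadps, which primes dense core vesicles, was 1.55 higher in BPH+ghrelin than in sham (limma, adjusted p = 0.0195), with detection on 1 sham array. Sham replicates 2 and 3, at 2.46 and 2.62, were not well above background, so 1.55 is not an exact difference. The BPH+ghrelin arrays alone were enough for Cadps to be tested, so the call is not independent of its detection. Cadps lost its call without sham replicate 3 or any BPH+ghrelin array. Foxa2, a transcription factor of neuroendocrine and other endodermal cells, was detected on all BPH arrays and on none in BPH+ghrelin, at least 2.20-fold lower. It entered this comparison through its BPH arrays alone, so the call is not independent of its detection. This bound takes the group without detection at the lowest signal well above background on each array, or at the signal of the probe where higher. Foxa2 lost its call whichever of the 6 arrays was left out, and with normexp. Bex1, a small adaptor protein of neurons and endocrine cells, was lower in BPH than in sham (-1.39, adjusted p = 0.0494), and when 1 array was left out it was called only without sham replicate 1.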

How the data were processed

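RNA of 9 rat prostates (3 per group) was hybridized to Agilent one-color arrays. The intensity values deposited by the authors are background-subtracted processed signals of the scanner software on a linear scale, with flags for outlier spots and for signal well above background. The log2 matrix deposited by the authors was quantile normalized with GeneSpring. It served as an alternative. There were 44254 spots per array, 42877 of them not controls, with a 75th percentile of raw signal of 327 to 1065, and 0 spots were saturated. The number of arrays limits the precision.

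Outlier spots were removed, spots of a probe averaged, and log2 signals quantile normalized over 9 arrays. Accessions were named through RefSeq (GRCr8). Tested probes were those detected on 3 or more of the 6 compared arrays, and a gene was represented by its brightest passing probe. Groups come from the sample labels. limma 3.58.1 (R 4.3.3, lmFit, eBayes, 3 groups) was used with Benjamini-Hochberg adjustment, and called means adjusted p under 0.05. The script was tested on simulated data. With 3 arrays a group, exact permutation cannot reach p under 0.1. Where a gene was detected on no array of a group, its fold is a bound.

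Some items are not reported here. Members and lists were chosen with earlier results of these data known. Every member on at least 3 of 9 arrays is named, and from each further list up to 3 called genes per comparison and direction with the largest difference. Alternatives were another scaling (75th percentile), normexp (offset 50, on median signals, since mean signals are not used here), other filters, the mean of probes, eBayes with trend and robust, the deposited matrix, the 6 compared arrays, replicate or slide as a block, leaving out each array, and other call rules. Slides were read from shared scans: 1 held 2 sham and 2 BPH+ghrelin arrays, 1 held 1 sham array, and 1 held the 3 BPH arrays and 1 BPH+ghrelin array.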

Additional observations from a re-analysis of the deposited data

How the results depend on the processing

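No member was called under any other scaling, background correction, filter, probe rule, model or block tried with all 9 arrays. With the 6 compared arrays alone 1 member was called between BPH+ghrelin and BPH (Chat) and 1 between BPH+ghrelin and sham (Uchl1), in fits that called 2118 of 19749 and 872 of 19197 genes. Leaving out 1 array gave 0 to 2 called members between BPH and sham (2, Chat and Mbp, without sham replicate 1) and 0 in the other comparisons. By unadjusted p under 0.05 the counts were 6, 5 and 3, and by at least 2-fold without a test 2, 3 and 1. The median log2 difference of members between BPH and sham was -0.021 with no filter, -0.028 with a filter on all 6 arrays and 0.58 with slide as a block, a fit in which BPH+ghrelin is the only link between both. The same block gave a median of -0.16 between BPH+ghrelin and BPH and 0.39 between BPH+ghrelin and sham. Without 1 array it ranged from 0.0070 to 0.18, from -0.10 to 0.15 and from 0.13 to 0.37, where the highest was without BPH+ghrelin replicate 1. The mean of probes turned Slc6a2 between BPH and sham to 0.16. The causes were not tested.

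With the replicate number as a block, the members called remained 0 in each comparison, and over all genes 242, 20 and 462 were called instead of 849, 293 and 1207. With slide as a block these counts were 2, 2 and 85, and when 1 array was left out they ranged from 119 to 3069, from 3 to 396 and from 226 to 1927. Arrays sharing a number correlated from -0.14 to 0.26 in their deviations from the group means. Arrays with different numbers were not correlated for reference, so this cannot decide whether the numbers pair the samples. Of 1038 values of single members under the alternatives, 64 changed sign, 4 became called and 1 was reversed. Of 313 values of called further genes, 124 were no longer called, among them Pou3f1 and Ncam1 between BPH and sham with slide as a block, and 0 changed sign.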
